A study of Mus musculus with 6 samples.

Results

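Genes of fat-derived signaling were followed in skeletal muscle of FLExDUX4 mice, namely 4 secreted adipokines (Adipoq, Cfd, Lep and Retn), 2 abundant adipocyte proteins (Fabp4 and Car3) and 3 receptors for adiponectin (Adipor1, Adipor2 and Cdh13). They were chosen by name, as the 9 rows with a mouse Ensembl identifier and one of these symbols among the 52550 mouse genes of the deposited table. The mice were 3 male FLExDUX4 and 3 male wild-type (WT) littermates, and the RNA was labelled as quadriceps at 13 weeks of age, whereas the methods of the study name triceps and a younger age. FLExDUX4 mice are hemizygous for a human DUX4 transgene that lies inverted in the Rosa26 locus and is expressed at a low, leaky level. The animals used here are described as single transgenic, without the Cre driver that would turn the transgene in muscle fibers. DUX4 is the gene whose misexpression causes facioscapulohumeral muscular dystrophy (FSHD), and the human transgene itself was not analysed here.

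Adipocytes release hormones and enzymes into the blood. Adiponectin, the product of Adipoq, acts on muscle through the membrane receptors encoded by Adipor1 and Adipor2, which favor fatty acid oxidation and AMP-activated kinase activity, and it is also bound by T-cadherin, the product of Cdh13, which is anchored to the membrane by a lipid and has no cytoplasmic part. Leptin (Lep) reports fat stores to the brain, resistin (Retn) is in mice an adipocyte hormone linked to insulin resistance, and Cfd encodes adipsin, or complement factor D, the protease that starts the alternative complement pathway. Fabp4 carries fatty acids in adipocytes and is also made by capillary endothelium and macrophages, while Car3 encodes a carbonic anhydrase found in adipocytes and in slow muscle fibers. In whole muscle, fewer cells of a type and less RNA per cell cannot be told apart.

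The libraries were made with QuantSeq, which reads the 3′ end of each polyadenylated transcript, so that a count stands for about 1 transcript whatever its length and levels of different genes can be set side by side. The values are counts summed by the authors over the 3 mice of a genotype, 13110125 counts on mouse genes for FLExDUX4 and 18367364 for WT. Because each group enters here as a single total, no difference below has a replicate check, no test across mice was run, and 1 mouse can decide a ratio. The authors' own DESeq2 comparison of the mice was not used. Levels are given as CPM, counts brought to a common library total, after TMM scaling, which assumes most genes to be alike, and differences as the log2 ratio of FLExDUX4 over WT. The intervals are exact binomial (Clopper-Pearson) 95% intervals, and they cover counting error only. The muscle identity of the RNA was clear from the sarcomere genes. Acta1, skeletal actin, had 35940 CPM in FLExDUX4 and 34710 CPM in WT, and all 9 fast fiber and muscle markers had log2 ratios between -0.19 and 0.05.

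Among the 4 adipokines, Cfd, Adipoq and Retn were higher in FLExDUX4 muscle by 1.61 to 1.84 fold, while Lep was lower from very few counts. The adipocyte protein genes Fabp4 and Car3 and the receptors Adipor1 and Cdh13 were between 0.914 and 1.08 fold of WT. Adipor2 was 1.19 fold higher, a difference that was within counting error when scaled to the spike-ins. Under that scaling Fabp4, Car3, Adipor1 and Cdh13 were lower beyond counting error, and Retn was within it. All 9 genes passed the filter on low counts, which a high enough count in either total could satisfy. With a log2 ratio of 0.5 (1.41 fold) as the mark, 3 were past it as higher and 1 as lower, against 15.7% of the 13396 compared genes in each direction and 31.4% in either. Of the 9 genes, 7 had a ratio above 0, against 49.9% of compared genes, but only 3, against 25.2%, with both totals scaled by their counts on the spike-in RNAs, the ERCC and SIRV transcripts added to each sample. The median log2 ratio was 0.12 for the 9 genes, beside -0.001 for all compared genes. Scaling to the spike-ins lowered the ratio of every gene by 0.28 on the log2 scale (the resulting log2 value is called the spike-in ratio here) and left 1 of the 9, Cfd, past the mark as higher and 1, Lep, as lower, against 9.11% and 28.5% of compared genes under that scaling. Among the 9300 compared genes with at least 100 counts in both totals together, which include 8 of the 9 and leave out Lep, 8.54% were past the mark as higher and 7.67% as lower.

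**Figure D1:**
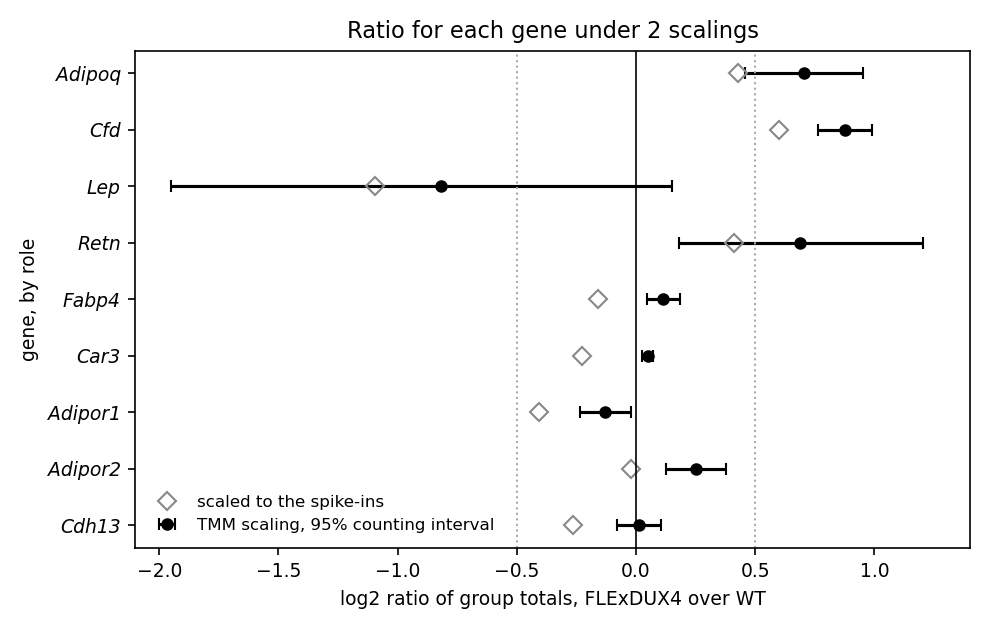
Log2 ratio of the group totals, FLExDUX4 over WT, for each gene by role, under TMM scaling (filled, with the 95% interval for counting error) and scaled to the spike-ins (open diamonds). Dotted lines mark ratios of -0.5 and 0.5. Adipoq, Cfd and Retn lie right of 0 and Lep left of it under both scalings, while Fabp4, Car3, Adipor2 and Cdh13 change sign with the scaling.

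The 9 genes differed widely in level. Car3 was by far the most abundant, with 1897 CPM in WT and 1963 CPM in FLExDUX4, and ranked 36 and 35 among all genes by counts. Fabp4 followed with 208.5 and 225.8 CPM, then Cdh13 with 129.7 and 130.9 CPM. In WT muscle the next places were taken by Adipor1 (98.5 CPM), Adipor2 (61.9 CPM) and Cfd (61.6 CPM), and the intervals of Adipor2 and Cfd overlapped. In FLExDUX4 muscle Cfd stood above Adipor1 and Adipor2, at 113.1 CPM against 90.02 CPM for Adipor1 and 73.8 CPM for Adipor2. Adipoq, Retn and Lep held the last 3 places in both groups. All other neighbors in the order had separate counting intervals in both groups, which says nothing about the spread between mice.

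**Figure D2:**
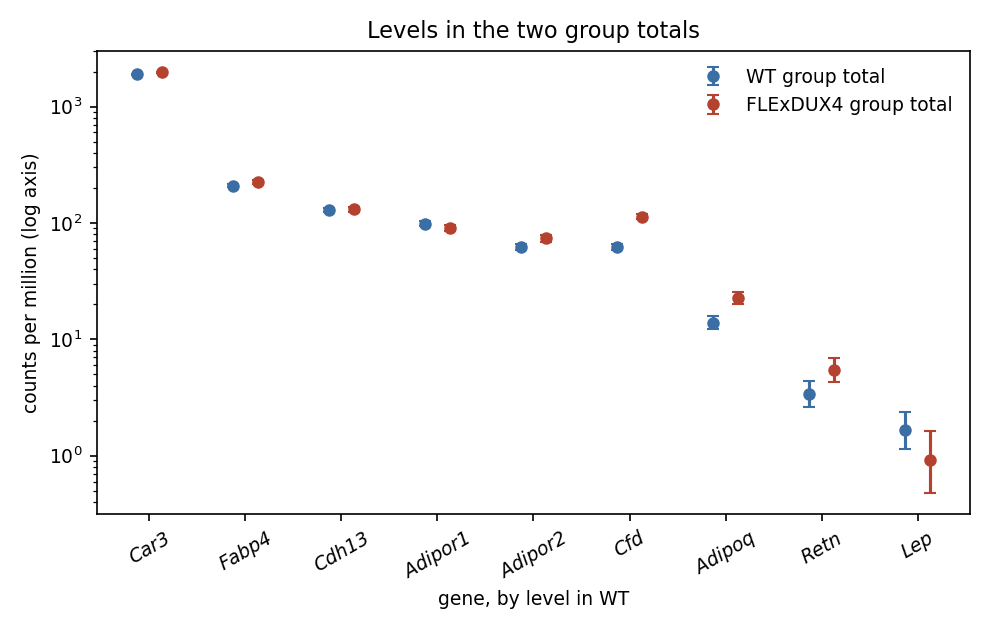
Level of each gene in CPM, on a log axis, in the WT (blue) and FLExDUX4 (red) group totals, ordered by the level in WT. Bars are 95% intervals for counting error only and are smaller than the points for abundant genes. Cfd moves from 61.6 to 113.1 CPM and passes Adipor1 and Adipor2 but not Cdh13, whereas Car3, Fabp4 and Cdh13 hold their places.

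Cfd had 1468 counts in FLExDUX4 mice and 1144 in WT mice, so that even the raw total was larger in the group with fewer counts. The gene lies on chromosome 10 of GRCm38, from 79890853 to 79892655 on the plus strand, with 5 exons that encode a protein of 259 residues. Its level was 113.1 CPM (interval 107.4 to 119.1) against 61.6 CPM (interval 58.1 to 65.3), and the log2 ratio was 0.88 (interval 0.76 to 0.99). Of all compared genes, 7.68% had a ratio at least as high, and 2.11% of those with at least 100 counts. The spike-in ratio was 0.60, still past the mark.

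Adipoq had 294 counts in FLExDUX4 mice and 258 in WT mice. It lies on chromosome 16, from 23146536 to 23158028 on the plus strand, and its 3 exons encode a protein of 247 residues. The level was 22.7 CPM (interval 20.1 to 25.4) against 13.9 CPM (interval 12.3 to 15.7), a log2 ratio of 0.71 (interval 0.46 to 0.95). The spike-in ratio, 0.43, was below the mark. Among compared genes with at least 100 counts, 4.14% had a ratio at least as high.

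Retn had 71 counts in FLExDUX4 mice and 63 in WT mice. This small gene of chromosome 8 (3655770 to 3660110, plus strand) had 5.47 CPM (interval 4.27 to 6.90) against 3.39 CPM (interval 2.61 to 4.34). The log2 ratio of 0.69 was close to that of Adipoq, but its interval, 0.18 to 1.20, was wide at this depth. The spike-in ratio was 0.41, with an interval of -0.10 to 0.93 that includes 0.

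Lep went the other way, with 12 counts in FLExDUX4 mice and 31 in WT mice. It lies on chromosome 6 from 29060220 to 29073877 on the plus strand. Its level was 0.92 CPM (interval 0.48 to 1.62) against 1.67 CPM (interval 1.14 to 2.37). The log2 ratio was -0.82, with an interval of -1.95 to 0.15 that includes 0. The spike-in ratio was -1.09, with an interval of -2.23 to -0.13 that does not, so that whether Lep was lower beyond counting error depended on the scaling.

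Ratios between genes of the same total do not depend on any scaling. For each Adipoq count there were 4.99 Cfd counts in FLExDUX4 and 4.43 in WT muscle, a log2 change of 0.17 (interval -0.10 to 0.44). Retn had 0.241 and 0.244 counts for each Adipoq count (log2 change -0.02, interval -0.59 to 0.56). Lep had 0.0408 counts for each Adipoq count in FLExDUX4 and 0.120 in WT muscle, a log2 change of -1.56 (interval -2.68 to -0.52). Lep against Cfd gave a log2 change of -1.73 (interval -2.83 to -0.72). The interval thus included 0 for Cfd and for Retn against Adipoq, while Lep was lower relative to both Cfd and Adipoq beyond counting error. The 4 adipokines summed to 1845 counts in FLExDUX4 and 1496 in WT mice, a log2 ratio of 0.82 (interval 0.72 to 0.92) with a spike-in ratio of 0.54, and Cfd made up 79.6% and 76.5% of these counts.

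RefSeq promoter windows on GRCm38.p6, from 250 bases before the start to 50 bases after it, were found for 6 of the 9 genes, with a pair of windows for Adipor1, and the entries for Fabp4, Car3 and Cdh13 were not found. The RefSeq start equals the gene start given here for Cfd, Adipoq and Retn and for 1 window of Adipor1, and lies downstream of it by 1 base for Lep, 286 bases for the other window of Adipor1 and 28970 bases for Adipor2. The windows were searched on both strands for the C/EBP palindrome TTGCGCAA, the gapped C/EBP site TTGCNNAA that contains it, the nuclear receptor core AGGTCA, the PPAR direct repeat of that core with 1 base between, the glucocorticoid receptor core AGAACA, the clock E-box CACGTG and the TATA box TATAAA. The only match was in Lep, which held the C/EBP palindrome from base -55 to base -48 before the start. Of all 32851 windows, 0.183% held that palindrome and 10.8% the gapped form. The other letters searched occur in 0.0396% (PPAR direct repeat), 16.3% (AGGTCA), 19.0% (AGAACA), 7.15% (CACGTG) and 13.6% (TATAAA) of windows. A match is a description of the letters and not evidence of a bound site, and an absent match says only that these letters are not in this window. The 120 bases before the RefSeq start are shown for Cfd and Adipoq, which were higher together, and for Lep, which was not, with the palindrome in capitals.
Cfd, chr10:79890733-79890852, plus strand: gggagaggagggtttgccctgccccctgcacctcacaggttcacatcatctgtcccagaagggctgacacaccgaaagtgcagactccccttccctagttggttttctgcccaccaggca
Adipoq, chr16:23146416-23146535, plus strand: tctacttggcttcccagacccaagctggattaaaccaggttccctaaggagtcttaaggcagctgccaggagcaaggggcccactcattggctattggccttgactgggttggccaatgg
Lep, chr6:29060101-29060220, plus strand: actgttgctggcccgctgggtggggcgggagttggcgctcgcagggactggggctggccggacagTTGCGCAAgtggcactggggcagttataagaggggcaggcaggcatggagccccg

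Fabp4 had 2929 counts in FLExDUX4 mice and 3869 in WT mice. It lies on chromosome 3 from 10204088 to 10208576 on the minus strand. Its level was 225.8 CPM (interval 217.7 to 234.1) against 208.5 CPM (interval 201.9 to 215.1), a log2 ratio of 0.12 (interval 0.04 to 0.19). The spike-in ratio was -0.16 (interval -0.23 to -0.09), so that the interval lay above 0 under one scaling and below it under the other. Against Adipoq, Fabp4 was lower, at 9.96 counts for each Adipoq count in FLExDUX4 and 15.0 in WT muscle, a log2 change of -0.59 (interval -0.85 to -0.33). Against the 21 compared adipocyte markers, Fabp4 was higher beyond counting error for 5 and lower for 8, with a median log2 change of -0.08. Against the 10 endothelial markers the change had no single direction either, with intervals above 0 for 4, below 0 for 2 and including 0 for 4. Fabp4 had 3.79 and 3.66 counts for each count of Pecam1, an adhesion protein of endothelial cells (log2 change 0.05, interval -0.10 to 0.20), and 5.80 and 5.26 for each count of Cdh5, VE-cadherin (log2 change 0.14, interval -0.04 to 0.32). It was higher against Kdr, a receptor of vascular endothelial growth factor (log2 change 0.68, interval 0.52 to 0.83), and lower against Esam, an adhesion protein (log2 change -0.61, interval -0.83 to -0.39).

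Car3, on chromosome 3 from 14863512 to 14872523 (plus strand), had 25473 counts in FLExDUX4 mice and 35206 in WT mice. This was 0.194% and 0.192% of all gene counts, and the log2 ratio was 0.05 (interval 0.03 to 0.07). The spike-in ratio was -0.23, and its interval, -0.25 to -0.20, likewise lay on the other side of 0. Set against skeletal actin, Car3 had 0.0546 and 0.0547 counts for each Acta1 count, a log2 change of -0.001 (interval -0.03 to 0.02). Acta1 and Ckm were the only 2 of the 9 fast fiber and muscle markers for which the interval included 0, and Car3 was higher against the other 7, at most by 0.24 against Myh1, a fast myosin heavy chain (interval 0.21 to 0.27). For each count of Myh7, the slow myosin heavy chain, there were 20.1 and 18.9 Car3 counts (log2 change 0.09, interval -0.02 to 0.20). Of the 7 slow fiber markers, the interval included 0 for 3 and lay above 0 for 4, with a log2 change of 0.296 against Myl2, a slow myosin light chain (interval 0.196 to 0.396). Car3 was lower relative to Adipoq, with 86.6 and 136 counts for each Adipoq count (log2 change -0.66, interval -0.90 to -0.41). Across the 21 compared adipocyte markers the direction depended on the marker, with intervals below 0 for 10, above 0 for 4 and including 0 for 7. Car3 was lower against Plin4, a droplet protein (log2 change -0.67, interval -0.76 to -0.58), and higher against Scd1, a fatty acid desaturase (log2 change 0.28, interval 0.16 to 0.396).

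Among the receptors, Adipor1 was slightly lower and Adipor2 slightly higher, the latter under TMM scaling and not when scaled to the spike-ins. Adipor1 (chromosome 1, 134415378 to 134433351, plus strand) had 1168 counts in FLExDUX4 mice and 1828 in WT mice, or 90.02 CPM (interval 84.9 to 95.3) against 98.5 CPM (interval 94.0 to 103.1). Its log2 ratio was -0.13 (interval -0.24 to -0.02, spike-in ratio -0.41). Adipor2 (chromosome 6, 119353150 to 119417704, minus strand) had 957 and 1149 counts, or 73.8 CPM (interval 69.2 to 78.6) against 61.9 CPM (interval 58.4 to 65.6). The log2 ratio of Adipor2 was 0.25 (interval 0.13 to 0.38), while the spike-in ratio was -0.023, with an interval of -0.15 to 0.10 that includes 0. The balance of the receptors does not depend on scaling: there were 1.22 Adipor1 counts for each Adipor2 count in FLExDUX4 and 1.59 in WT muscle, a log2 change of -0.38 (interval -0.55 to -0.22). Adipor1 stayed the more abundant of the pair in both groups.

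Cdh13 spans 1041189 bases of chromosome 8 (118283733 to 119324921, plus strand), with 14 exons in its principal transcript. It had 1698 counts in FLExDUX4 mice and 2408 in WT mice, 130.9 CPM (interval 124.7 to 137.2) against 129.7 CPM (interval 124.6 to 135.0). The log2 ratio of 0.01 (interval -0.08 to 0.10) was the closest to 0 of the 9 genes under TMM scaling, and the spike-in ratio was -0.26, with an interval of -0.35 to -0.17 below 0. In GENCODE, 5 genes overlap Cdh13 and all had 0 counts in both groups, and 0 genes overlap any other of the 9. Against the 10 endothelial markers, Cdh13 was higher beyond counting error for 4, lower for 2, and within it for 4. There were 2.20 and 2.28 Cdh13 counts for each Pecam1 count (log2 change -0.05, interval -0.22 to 0.11) and 3.36 and 3.27 for each Cdh5 count (log2 change 0.04, interval -0.15 to 0.23). The log2 change was 0.57 against Kdr (interval 0.41 to 0.74) and -0.71 against Esam (interval -0.94 to -0.49). For each Adipoq count there were 5.78 Cdh13 counts in FLExDUX4 and 9.33 in WT muscle, a log2 change of -0.69 (interval -0.96 to -0.43).

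**Figure D3:**
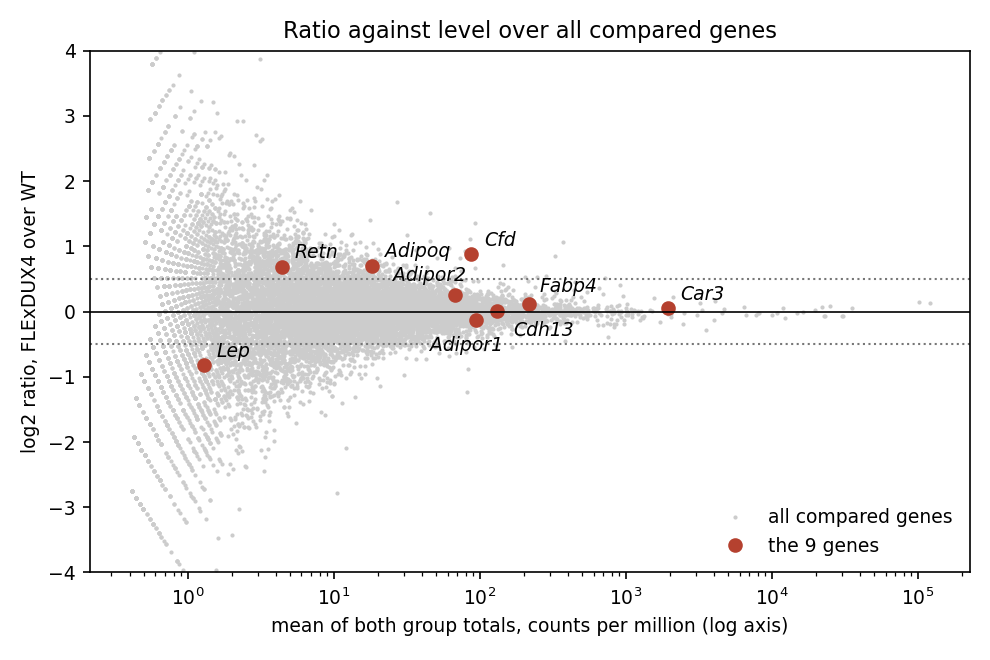
Log2 ratio of FLExDUX4 over WT group totals (TMM scaling) against the mean level in CPM, on a log axis, for all 13396 compared genes (grey) and the 9 genes (red). Dotted lines mark -0.5 and 0.5, and 109 genes with a ratio beyond 4 in size are outside the plot. Cfd, at 0.88, and Adipoq, at 0.71, lie above the mark. Lep lies where counts are few and ratios spread widely, and Retn, at 0.69, lies above the mark among genes of few counts. The other 5 genes lie between -0.13 and 0.25. Scaled to the spike-ins, all points lie 0.28 lower.

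Of 22 further adipocyte genes, 21 were compared, with 3 past the mark as higher and 3 as lower, against 15.7% of all compared genes in each direction, and a median log2 ratio of 0.20. Above 0 were 13 of the 21, against 49.9% of all compared genes, and 8 by the spike-in ratio, against 25.2%. The shares of all compared genes are the same for the lists that follow. Pparg, the master regulator of fat cell differentiation, had 69 and 54 counts in FLExDUX4 and WT mice, a ratio of 0.87 (interval 0.34 to 1.41), and Acvr1c, a receptor of the activin family, had 61 and 18 counts, a ratio of 2.25 (interval 1.499 to 3.12). The third past the mark as higher was Plin4, far more abundant with 2333 and 2025 counts, at a ratio of 0.72 (interval 0.63 to 0.81, spike-in ratio 0.45). The lowest were Tusc5, with 13 and 40 counts and a ratio of -1.07 (interval -2.13 to -0.17), and Cidea, a lipid droplet protein of brown fat, with 3 and 15 counts and a ratio of -1.63 (interval -4.24 to 0.02). Plin1, the droplet coat protein of mature adipocytes, had 139 and 150 counts and a ratio of 0.41 (interval 0.06 to 0.75), and Cidec, another droplet protein, 138 and 172 counts and a ratio of 0.20 (interval -0.14 to 0.53, spike-in ratio -0.08). Ucp1, the marker of brown adipocytes, had 0 counts in both groups.

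Against each of the 21 compared markers, Adipoq was higher beyond counting error for 15, lower for 1 (Acvr1c) and within it for 5. Cfd was higher for 19, lower for 1 (Acvr1c) and within counting error for 1 (Pparg). Of all compared genes, 89.5% had a ratio at or below that of Adipoq and 92.3% at or below that of Cfd. The counts thus mostly restate how high these ratios are, and set no adipocyte marker apart from other genes. The 15 for Adipoq include Lpl, Gpd1, Slc2a4, Cd36 and Pnpla2, which muscle fibers also express, at 123.3 CPM or more in both groups. They also include the scarcer Cidea, Tusc5, Adrb3, Aoc3 and Cebpa, each at 5.55 CPM or less in both groups. The 5 within counting error of Adipoq were Plin1, Plin4, Lipe, Pparg and Fasn. Of these, Plin4 was itself abundant, with 179.8 CPM in FLExDUX4 and 109.1 CPM in WT. There were 2.12 Adipoq counts for each Plin1 count in FLExDUX4 and 1.72 in WT muscle (log2 change 0.30, interval -0.13 to 0.72), and 4.26 and 4.78 for each Pparg count (log2 change -0.17, interval -0.76 to 0.43). Against Cidec, Adipoq had 2.13 counts for each count in FLExDUX4 and 1.5 in WT, a log2 change of 0.51 (interval 0.09 to 0.92). Cfd was higher relative to Plin1, with 10.6 and 7.63 counts for each Plin1 count (log2 change 0.47, interval 0.11 to 0.83). Against Plin4 the change was smaller, 0.16 for Cfd (interval 0.01 to 0.298) and -0.02 for Adipoq (interval -0.28 to 0.25). The intervals that include 0 are wide and do not show that these genes moved alike.

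Other adipokines did not share a direction, with 5 of the 11 compared above 0 and 6 below it, and 2 above it by the spike-in ratio. Of these 11, 1 was past the mark as higher and 2 as lower, and the median log2 ratio was -0.08. Nrg4, a hormone of brown fat, had 13 and 3 counts and a ratio of 2.46 (interval 0.77 to 5.08), and Rbp4, a carrier of retinol, had 35 and 38 counts and a ratio of 0.40 (interval -0.31 to 1.10). Rarres2, which encodes chemerin, was lower with 328 and 669 counts, a ratio of -0.51 (interval -0.71 to -0.32). Angptl4, an inhibitor of lipoprotein lipase, had 13 and 41 counts and a ratio of -1.10 (interval -2.17 to -0.21).

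Of 15 genes for the assembly of adiponectin and the signal below its receptors, 2 were past the mark as higher and 0 as lower, with a median log2 ratio of 0.05. These were Camkk2, a kinase that activates AMP-activated kinase, with 142 and 109 counts and a ratio of 0.90 (interval 0.53 to 1.27), and Prkaa1, a catalytic subunit of AMP-activated kinase, with 135 counts in each total and a ratio of 0.52 (interval 0.16 to 0.87, spike-in ratio 0.24). The far more abundant catalytic subunit gene Prkaa2 had 182.5 and 184.2 CPM and a ratio of -0.01 (interval -0.09 to 0.06). Appl1, the adaptor that binds the adiponectin receptors, had 45.6 and 43.9 CPM and a ratio of 0.05 (interval -0.10 to 0.21, spike-in ratio -0.22). The lowest ratios were those of Gstk1, which helps adiponectin form multimers, at -0.20 (interval -0.39 to -0.01), and Mapk14, at -0.15 (interval -0.30 to -0.01).

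For leptin and resistin, 7 receptor and signal genes were compared, 1 past the mark as higher and 1 as lower. Lepr, the leptin receptor, had 37 counts in FLExDUX4 and 8 in WT mice, a ratio of 2.66 (interval 1.6 to 4.04). It passed the filter on low counts through the FLExDUX4 total, which favors a high ratio. Socs3, a feedback inhibitor of cytokine signaling that leptin can induce, had 30 and 94 counts and a ratio of -1.12 (interval -1.78 to -0.53). Jak2, the kinase bound to the leptin receptor, had a ratio of 0.18 (interval -0.01 to 0.36, spike-in ratio -0.10). Ptpn1, a phosphatase that acts on that kinase, had a ratio of -0.29 (interval -0.48 to -0.10), and Tlr4, a proposed receptor of resistin, had 11 and 20 counts and a ratio of -0.32 (interval -1.55 to 0.78).

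Of 7 other genes of the complement pathway that were compared, 1 had a ratio above 0 and 6 below it, and 0 were above it by the spike-in ratio. Past the mark, 0 were higher and 2 lower, and the median log2 ratio was -0.10. C3, the central component, had 359 and 474 counts and a ratio of 0.12 (interval -0.09 to 0.32, spike-in ratio -0.16). Cd59a, an inhibitor of the membrane attack complex, followed with 377 and 567 counts and a ratio of -0.07 (interval -0.26 to 0.12). Cfb, the substrate that factor D cleaves, was at the floor of 3 counts or fewer in both groups, with 0 and 2 counts. Cfp, properdin, which stabilizes the convertase of the pathway, had 31 and 83 counts and a ratio of -0.89 (interval -1.55 to -0.29), and Cd46 had 17 and 45 counts and a ratio of -0.86 (interval -1.79 to -0.06).

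Markers of the other cells that make these proteins were read beside them. The 10 endothelial markers summed to 257.6 CPM in FLExDUX4 and 266.4 CPM in WT muscle, with a median log2 ratio of -0.04, 1 past the mark as higher (Esam, 0.73) and 3 as lower (Kdr, -0.56, Tek, -0.63, and Cldn5, -1.34). The 7 slow fiber markers summed to 926.4 and 995.5 CPM, with ratios from -0.25 (Myl2) to 0.07 (Atp2a2). The 8 markers of fibro-adipogenic progenitors, cells residing between muscle fibers that can become adipocytes, summed to 909.2 and 875.9 CPM. Their ratios ran from -0.37 (Dpp4) to 0.48 (Lum), with 0 past the mark. The 8 macrophage and leukocyte markers summed to 80.5 and 83.3 CPM and had ratios from -0.83 (Cd14) to 1.002 (Itgam), with a median of -0.06. The 4 Schwann cell markers summed to 142.9 and 136.9 CPM, with ratios from -0.31 (S100b) to 0.26 (Mbp). Blood markers stood higher under TMM scaling: all 5 had ratios from 0.26 (Hba-a1) to 0.45 (Alas2), and their sum was 1279 against 1020 CPM. By the spike-in ratio 4 of the 5 were above 0, but most lay close to it. These spike-in ratios were -0.021 (Hba-a1), 0.001 (Hbb-bt), 0.05 (Hba-a2), 0.083 (Hbb-bs) and 0.172 (Alas2). No defining marker of these cell types was at 0, and the part of any of these cells in the adipokine ratios was not tested.

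**Figure D4:**
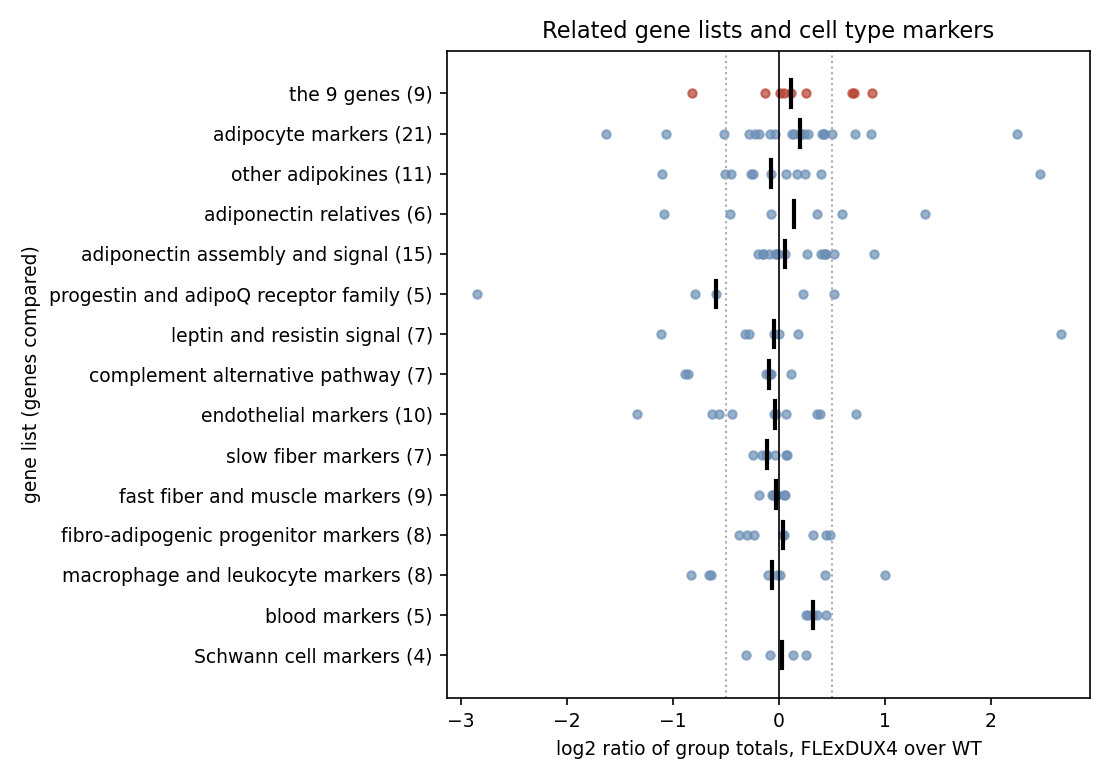
Log2 ratio of FLExDUX4 over WT group totals (TMM scaling) for each compared gene (points) of the 9 genes and of related lists, with the number of genes compared in brackets and the median as a black bar. Dotted lines mark -0.5 and 0.5. The median is 0.12 for the 9 genes, 0.20 for adipocyte markers and 0.33 for blood markers, while fiber markers lie close to 0, and all points lie 0.28 lower when scaled to the spike-ins.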

How the data were processed

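Muscle RNA of 3 FLExDUX4 and 3 WT mice was sequenced as QuantSeq 3′ libraries. Reads were trimmed with Cutadapt 1.16 and aligned with STAR 2.5.3a to GRCm38 joined with ERCC and SIRV spike-in sequences, and the submitters' processing notes also list featureCounts 1.6.2. The values used are raw counts per feature, summed by the authors over each genotype and deposited without normalization. Columns of the authors' DESeq2 comparison (mean, fold change, error, statistic, p and adjusted p) were not used, nor were 6 columns of values per library whose names match no sample label, so the planned edgeR test across samples was not run.

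Spike-ins (99 features, with 220016 counts in FLExDUX4 and 259913 in WT) were left out of the gene totals. TMM factors were computed with edgeR 4.0.16 under R 4.3.3 from the 13396 genes that filterByExpr kept. That filter can be passed through a single total. This favors large ratios among scarce genes kept that way, such as Nrg4, Lepr, Cidea, Paqr3 and Cdh19. Log2 ratios used a pseudocount of 0.5, and 95% Clopper-Pearson intervals came from Python 3.11.15 with scipy 1.17.1. Changes in the ratio of 2 genes carry exact conditional odds ratio intervals, or normal ones on the log scale for list pairs with at least 10000 counts throughout. Scripts were tested on simulated counts. Gene positions are from GENCODE M21 on GRCm38, whose starts equal the deposited ones for all 9 genes. Promoter sequences are from RefSeq on GRCm38.p6, and protein sequences were not used here.

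Genes named are the 9, the 2 highest and 2 lowest ratios of related gene lists and, for cell type marker lists, the ends of the range, the endothelial markers past the mark and Acta1, fewer than planned. Other genes (among them Plin4, Lpl, Scd1, Ckm, Myh1, Appl1, Prkaa2, Ptpn1, Cfb and Cdh15), the gene pairs and the TATA box were picked after values were seen. The 9 genes and all lists were chosen with earlier results of these data known. A few genes were taken off the lists and are not reported here, while counts and medians cover every gene left on a list, named or not.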

Additional observations from a re-analysis of the deposited data

How the results depend on the processing

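No paired analysis was possible because values of single mice were not used, and for the same reason the edgeR and DESeq2 tests and leaving out each replicate in turn were not run. Of the 9 genes, 4 were past a log2 ratio of 0.5 in either direction, against 31.4% of all compared genes, and 2, against 37.6%, with spike-in scaling. At a log2 ratio of 1 the number was 0. The median log2 ratio of the 9 genes became -0.16 with spike-in scaling, which turned Fabp4 (-0.16), Car3 (-0.23), Adipor2 (-0.023) and Cdh13 (-0.26) negative. The median of all compared genes, -0.001 under TMM scaling, shifted by the same amount (-0.28), so the 9 genes did not fall relative to other genes. Cdh13 was also negative with upper quartile scaling (-0.003) and gene totals (-0.017). The share of all compared genes past the mark was 50.7% with no filter, 53.6% at a log2 ratio of 0.25 and 13.4% at 1. RLE scaling, no filter and a pseudocount of 5 left all 9 ratios in their direction and within their counting intervals. Scaling to the spike-ins shifts every gene alike, and whether the added spike-in or the amount of mRNA per sample differed cannot be told apart. Depth limits Lep and Retn most.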

Other observations

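The relatives of the 9 genes were mostly scarce in muscle. Of 9 C1q/TNF-related genes, which are paralogs of Adipoq, 6 were compared, 2 past a log2 ratio of 0.5 as higher and 1 as lower, where 15.7% of all compared genes were past it in each direction. C1qtnf9, the most abundant of them, had 248 counts in FLExDUX4 and 235 in WT mice and a ratio of 0.59 (interval 0.33 to 0.86), and 0.32 when scaled to the spike-ins. C1qtnf2 had 35 and 19 counts and a ratio of 1.38 (interval 0.55 to 2.29). C1qtnf12 had 116 and 229 counts and a ratio of -0.46 (interval -0.80 to -0.14), and C1qtnf1 had 25 and 77 counts and a ratio of -1.09 (interval -1.82 to -0.44). Of 7 genes of the receptor family of Adipor1 and Adipor2 that were looked up (Paqr3 to Paqr9), none exceeded 102 counts in either group, 5 were compared, and 3 were past the mark as lower (15.7% of all compared genes) and 1 as higher, all from few counts. Among the lower were Paqr4 with 41 and 102 counts and a ratio of -0.79 (interval -1.36 to -0.26) and Paqr3 with 1 and 15 counts and a ratio of -2.85 (interval -8.79 to -0.69). Paqr9, with 92 counts in each total, had a ratio of 0.52 (interval 0.08 to 0.95, spike-in ratio 0.24), and Paqr7, with 27 and 33 counts, a ratio of 0.23 (interval -0.56 to 1.005).

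Fabp3, the muscle fatty acid binding protein gene, had 3622 counts in FLExDUX4 and 5152 in WT mice and a ratio of 0.01 (interval -0.05 to 0.07, spike-in ratio -0.27). It was the only relative of Fabp4 among 8 with more than 70 counts in either group. Fabp5, the only other relative compared, had 36 and 70 counts and a ratio of -0.43 (interval -1.07 to 0.16). Of 14 other carbonic anhydrase genes, 7 were compared. Car14 was the most abundant, with 37.3 and 34.6 CPM and a ratio of 0.11 (interval -0.06 to 0.28, spike-in ratio -0.17). Car5b was higher with 29 and 19 counts, a ratio of 1.11 (interval 0.24 to 2.04), and Car2 was lower with 79 and 165 counts, a ratio of -0.54 (interval -0.95 to -0.15), as was Car7 with 12 and 49 counts, a ratio of -1.47 (interval -2.56 to -0.58). Of 17 other cadherin genes, 7 were compared, and the most abundant were Cdh5, with 38.9 and 39.7 CPM, and Cdh15, the cadherin of muscle stem cells, with 8.71 and 8.84 CPM and a ratio of -0.02 (interval -0.38 to 0.33, spike-in ratio -0.30). Cdh19 had 22 and 10 counts and the highest ratio of the 7, 1.62 (interval 0.52 to 2.90), followed by Cdh22 with 10 counts in each total and 0.52 (interval -0.90 to 1.94). Cdh1 had 5 and 14 counts and the lowest, -0.88 (interval -2.80 to 0.59), and Cdh11 had 33 and 56 counts and a ratio of -0.24 (interval -0.91 to 0.399).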
